A study of Mus musculus with 10 samples.

Results

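The genes described here are the expressed long intergenic noncoding RNA (lincRNA) genes of a mouse ovarian tumour line, 192 of the 55385 genes counted. A gene was taken if the count table gave it the biotype lincRNA and if its CPM (the count scaled to a library total of 1000000, averaged over all 10 libraries) reached at least 1. Of 5626 lincRNA rows, 1 further gene at that level was left out by its symbol. The genes were thus chosen by a measured value, their level over both groups, and not by the difference between them, so a gene below 1 CPM in a single group, such as Gm53, entered through its level in the other. Just inside the threshold stood Gm43660 at 1.00, Gm45495 at 1.01 and Gm28151 at 1.03 CPM, and just outside it 9330104G04Rik at 0.998, Gm12319 at 0.987 and Gm14221 at 0.980 CPM.

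The study asked what depletion of interleukin-6 does to gene expression in tumour cells mutant for Arid1a and Pik3ca. Total RNA was sequenced from 5 samples with the label IL6 shRNA1, whose genotype is given as IL6 knockdown, and from 5 with the label control shRNA, whose genotype is given as WT. The control hairpin matches no mammalian gene and sits in the pLKO.1-puro vector. All 10 came from the single line written APV245 in the sample names and APC245 in the design text, and all carried its mutations in Arid1a and Pik3ca. The sample labels describe untreated cells in DMEM, whereas the design text describes tumours grown under the skin. No label says whether the 5 samples of a group came from separate cultures or animals, so the p-values measure the spread between these samples, which may be technical. Any pair of libraries of a group differed beyond counting noise, with a chi-square of at least 11.7 per degree of freedom over genes.

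LincRNAs are transcripts that are spliced and polyadenylated much like mRNAs but lack a long conserved reading frame. Most are made at low levels. Some act on chromatin or on genes beside their own locus, some build nuclear bodies, some bind proteins or microRNAs in the cytoplasm, and others are known mainly as the host transcripts from which small RNAs are cut. For most of the genes with a Gm or Rik symbol no function is established.

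Il6 mRNA did not fall with its hairpin. Il6 stood at 1.07, 1.83, 2.18, 1.80 and 1.75 CPM in IL6 shRNA1 libraries 1 to 5, against 1.61, 0.438, 2.06, 1.34 and 0.830 CPM in control libraries 1 to 5 (log2 fold change 0.44 ± 0.36 SE, adjusted p = 0.44 by edgeR's quasi-likelihood test). The groups overlapped, so the libraries carry the names of their labels, and higher or lower means in those labelled IL6 shRNA1, set against control. Library totals were 17905397 to 19934278 counts in IL6 shRNA1 and 18224751 to 22682346 in control. A first principal component took up 54.3% of the variance, and IL6 shRNA1 library 5 at 65.2 and control libraries 2 and 5 at -64.9 each lay farthest out on it. Markers of leukocytes were counted although the labels name tumour cells. Of 22 leukocyte markers tested, 12 were higher in IL6 shRNA1, 0 lower and 10 not called. The summed level of all 25 leukocyte markers listed was 3396 to 6771 CPM in IL6 shRNA1 and 1282 to 3575 CPM in control. For 9 listed markers of muscle, fat, skin and blood it was 135.5 to 7554 CPM in IL6 shRNA1 and 26.6 to 805.6 CPM in control. Of these markers 6 were tested and 0 called. Of 7 endothelial markers 0 were called, of 6 fibroblast and pericyte markers 2 were lower, and of 6 epithelial and Mullerian markers 1 was higher. Pax8, a marker of Mullerian epithelium, had too few counts to be tested. In bulk RNA, fewer cells of a type and less RNA per cell cannot be told apart.

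The lincRNA genes together took 0.235% to 0.269% of the counts in the IL6 shRNA1 libraries and 0.223% to 0.270% in the control libraries, so the groups overlapped. A few genes held most of these counts, with 59.6% in the 5 highest and 73.4% in the 10 highest. By CPM averaged over all libraries the order was Gm42047 at 576, Malat1 at 284, 2900097C17Rik at 232, Neat1 at 231, Gm10076 at 173, Oip5os1 at 159 and AU020206 at 98.3 CPM, and the eighth, Gm37494, stood at 31.5 CPM. The median gene was at 2.37 CPM, against 22.5 CPM over all 15064 genes tested. Per length, which is what FPKM (fragments per kilobase of gene, scaled to the library) gives, Gm10076 led at 451 FPKM, followed by Gm42047 at 102, 2900097C17Rik at 47.2, Malat1 at 40.6, AW112010 at 38.5 and AU020206 at 30.8 FPKM.

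The table's label did not hold in full against gene positions or sequence. By gene body, 31 of the 192 overlapped a protein-coding gene, 22 on the other strand and 9 on the same strand, and 93 overlapped any other annotated gene, these 31 included. The strand setting of the counting is not given in the sources used here, and without strand, reads of such pairs cannot be told apart. Of 190 genes matched to a reference transcript, 12 had at least 50% of it in stretches of at least 100 bases that were 98% or more identical to another gene's transcript. Gm10076 was 99.7% covered by the ribosomal protein mRNA Rpl41, Gm42047 95.9% covered by copies led by Gm48362, 2900097C17Rik 51.6% by Gm7292 and Gm27000 100% by Meg3, so their counts depend on how shared reads were assigned and are uncertain. The median transcript was 2019.5 bases long with 2 exons, and 44 of the 190 had a single exon.

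In the contrast between the groups, 17 of the 192 lincRNA genes were called at an adjusted p under 0.05, 8 higher and 9 lower in IL6 shRNA1. That was 8.85% of them, beside 11.8% of all genes tested and 12.7% of tested protein-coding genes. Higher calls made up 5.62% and lower calls 6.16% of all genes tested. A difference of at least 2-fold was called for 10 of the 192 lincRNA genes (6 higher, 4 lower), beside 373 of all 15064 genes (2.48%). By level these were 5 of 74 lincRNA genes at 1 to 2 CPM, beside 54 of 1112 of all genes. They were 4 of 71 at 2 to 5 CPM, beside 82 of 1524, and 1 of 47 at 5 CPM or more, beside 191 of 11208. The CPM ranges of the groups did not overlap for 18 lincRNA genes, 9.38% of them and beside 10.9% of all genes, and 15 of the 18 were called. All 192 passed the filter on low counts. The median log2 fold change was -0.11, with 73 positive and 119 negative values. Over all genes tested it was -0.01, with 7211 positive and 7853 negative values. At 1 to 2 CPM the median was -0.17 for the lincRNA genes and 0.08 for all genes. It was -0.09 and 0.12 at 2 to 5 CPM, and -0.04 and -0.03 at 5 CPM or more. The cause of this difference was not tested. Standard errors of the lincRNA genes were wider, at a median of 0.23 log2 units against 0.13 over all genes. At matched levels the shares lay close together: of the lincRNA genes at 1 to 2 CPM 6.76% were called (5.76% of all genes at that level), at 2 to 5 CPM 8.45% (8.53%), and at 5 CPM or more 12.8% (13.7%). With library totals as the only scaling, 14 lincRNA genes were called, 5 higher and 9 lower, a share of higher calls of 35.7% beside 47.1% with TMM factors.

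**Figure D1:**
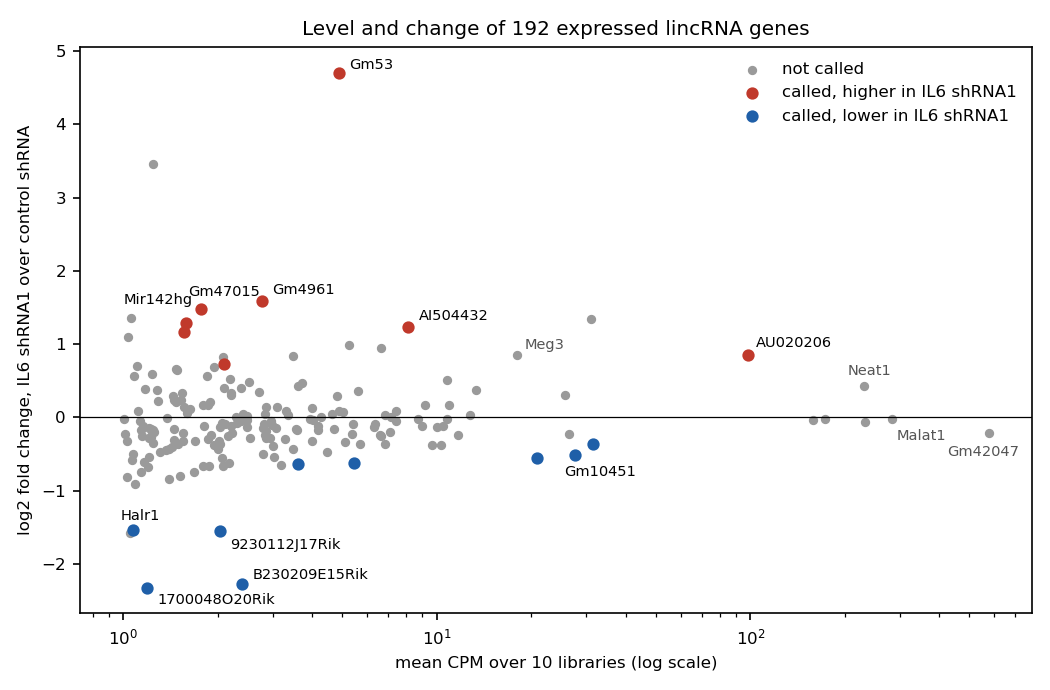
Each point is 1 of the 192 lincRNA genes, placed by its mean CPM over 10 libraries (log axis) and its log2 fold change, IL6 shRNA1 over control shRNA; red and blue mark the 8 higher and 9 lower genes called at an adjusted p under 0.05. Gm53 stands alone at 4.70, most of the other called genes lie below 10 CPM, Malat1 lies at -0.02 and Gm42047 at -0.21, and AU020206 is the most abundant of the called genes at 0.85.

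The count depended on single libraries, as did that over all genes tested, which ran from 864 to 2774 (1775 with all libraries). The lincRNA count was 26 without IL6 shRNA1 library 1, 10 without IL6 shRNA1 library 2 and 10 without IL6 shRNA1 library 5. It was 10 without control library 2 and 11 without control library 5. Of the 17 called genes, 10 kept the call in every omission of a single library and 7 lost it in at least 1. Without the 3 libraries farthest out on the first component 6 of the 17 were called, and with the leukocyte score of each library (the mean centred log2 CPM of the tested leukocyte markers) as a covariate 4 were: Gm53, Gm4961, 1700048O20Rik and B230209E15Rik. That score was 0.49 ± 0.34 in IL6 shRNA1 and -0.49 ± 0.63 in control (SD, n = 5 each), so it shares variance with the group. The counts over all genes fell in these fits too and are given below with the other processing choices.

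The gene beside Hoxb9, Gm53, showed the largest difference of the 192. Gm53 (ENSMUSG00000078706.4; GRCm38, chromosome 11, 96251105 to 96264868, plus strand) lies in the Hoxb cluster between Hoxb13 and Hoxb9. Hox clusters are rows of homeobox transcription factor genes that pattern the body axis, and noncoding transcripts are common between them. The first 200 bases of its reference transcript are shown because this RNA differs most between the groups; capitals mark 10 bases on each side of its splice junction (GENCODE M21, GRCm38, plus strand, chr11:96251644-96261641, intron left out).
Gm53: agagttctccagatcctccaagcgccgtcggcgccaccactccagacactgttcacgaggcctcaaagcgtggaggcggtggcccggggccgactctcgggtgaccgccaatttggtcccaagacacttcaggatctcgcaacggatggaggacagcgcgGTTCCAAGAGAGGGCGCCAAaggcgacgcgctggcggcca

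Gm53 was at 10.5, 8.002, 10.4, 6.57 and 11.5 CPM in the IL6 shRNA1 libraries, against 0.339, 0.438, 0.387, 0.414 and 0.178 CPM in the control libraries. Every IL6 shRNA1 library was above every control library. The log2 fold change was 4.70 ± 0.25 (SE; 95% interval 4.15 to 5.26, adjusted p = 1.2e-05), and the control values rest on as few as 3 counts. The call was kept in each alternative fit, including those without the 3 farthest libraries (log2 fold change 4.53) and with the leukocyte covariate (4.77). The difference was smaller on the log2 scale of FPKM plus a pseudocount, at 3.69 with 0.1 and 1.61 with 1, since adding a pseudocount shrinks the differences of low genes.

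The change was uneven along the Hoxb cluster. Hoxb9, whose body starts 6.589 kb beyond the end of Gm53 on the same strand, was at 20.3, 18.6, 24.5, 14.6 and 21.1 CPM in IL6 shRNA1, against 0.721, 0.584, 1.76, 1.604 and 0.297 CPM in control (log2 fold change 4.29 ± 0.39 SE, adjusted p = 0.00044). Hoxb8, the next gene, was at 5.00 ± 0.90 CPM in IL6 shRNA1 and 1.73 ± 0.42 CPM in control (n = 5 each, SD; log2 fold change 1.53 ± 0.21 SE, adjusted p = 0.0024). For both genes the groups did not overlap. On the near side Hoxb13 was at 9.80 CPM in IL6 shRNA1 and 10.1 CPM in control (log2 fold change -0.04, adjusted p = 0.89), and on the far side Hoxb7 (0.03), Hoxb6 (-0.01), Hoxb5, Hoxb4, Hoxb3 and Hoxb2 were not called. Of the genes tested in the cluster, those called were 3 neighbours, Gm53, Hoxb9 and Hoxb8.

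Between Gm53 and Hoxb9 lies the hairpin gene Mir196a-1, whose mature microRNA is known to target Hox mRNAs, Hoxb8 among them. Its row held 0.82 ± 0.28 CPM in IL6 shRNA1 and 0.055 ± 0.057 CPM in control (SD, n = 5 each), too few counts for the test, from 0 to 21 a library. A long-RNA library counts transcripts that run through the hairpin, not the mature microRNA, whose sequence is shown from RefSeq (GRCm38.p6, chromosome 11, plus strand) with the seed, bases 2 to 8, in capitals.
mmu-miR-196a-5p: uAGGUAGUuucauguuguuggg

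**Figure D2:**
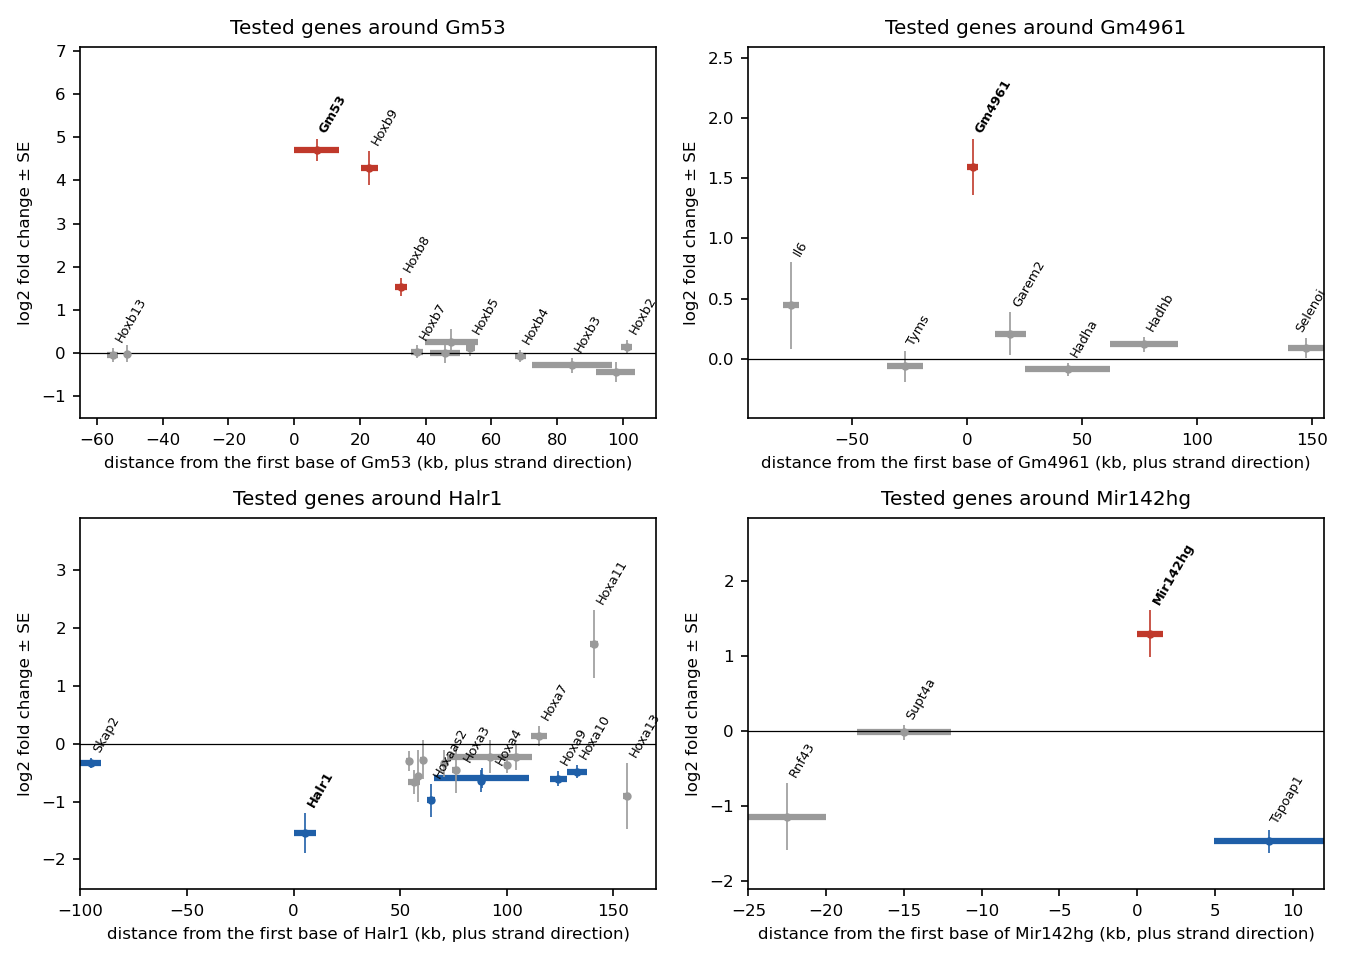
Log2 fold changes, IL6 shRNA1 over control shRNA, with their SE (vertical lines) for the tested genes around Gm53, Gm4961, Halr1 and Mir142hg, drawn as bars over the gene body against the distance in kb from the first base of the named gene; red is called higher, blue called lower, grey not called, and some uncalled genes carry no name. Around Gm53 the red bars are Gm53, Hoxb9 and Hoxb8, around Gm4961 the single red bar is Gm4961, and around Mir142hg the neighbour Tspoap1 is blue.

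A second lincRNA gene that was higher lies near Il6, the gene named on the hairpin's label. Gm4961 (ENSMUSG00000104667.1; chromosome 5, 30092940 to 30097686, plus strand) lies on the chromosome of Il6 (30013114 to 30019981), with Tyms between them. The start of its reference transcript is shown because its call was kept in each alternative fit; capitals mark 10 bases on each side of the splice junction (GENCODE M21, GRCm38, plus strand, chr5:30092940-30095637, intron left out).
Gm4961: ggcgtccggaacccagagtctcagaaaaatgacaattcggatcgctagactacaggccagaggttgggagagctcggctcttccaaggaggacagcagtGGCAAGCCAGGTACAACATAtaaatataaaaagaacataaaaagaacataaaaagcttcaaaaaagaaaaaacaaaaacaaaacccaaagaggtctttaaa

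Gm4961 was at 5.02, 4.05, 3.93, 4.28 and 3.55 CPM in the IL6 shRNA1 libraries, against 1.70, 1.80, 0.773, 1.14 and 1.48 CPM in the control libraries, with no overlap. The log2 fold change was 1.59 ± 0.23 (SE; adjusted p = 0.0034), and it was 1.92 with the leukocyte covariate (adjusted p = 0.030) and 1.84 without the 3 farthest libraries (adjusted p = 0.027). The protein-coding genes tested around it were not called. Tyms, the thymidylate synthase gene, had a log2 fold change of -0.06. Garem2, the nearest of those tested at 7.475 kb, had 0.21 (adjusted p = 0.46), and Hadha, Hadhb and Selenoi were not called either. The protein-coding gene 3110082J24Rik lies nearer than Garem2 but had too few counts to be tested. Il6 itself was not called, with the values given above.

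The largest differences in the other direction were those of 1700048O20Rik and B230209E15Rik, for neither of which a function is established. 1700048O20Rik (chromosome 9, 121937223 to 121947016, plus strand) was at 0.321, 0.346, 0.655, 0.389 and 0.265 CPM in IL6 shRNA1, against 1.44, 2.39, 2.19, 2.12 and 1.84 CPM in control (log2 fold change -2.32 ± 0.28 SE, adjusted p = 0.0015). B230209E15Rik (chromosome 7, 61529871 to 61615327, minus strand) was at 1.18, 0.840, 0.546, 0.974 and 0.529 CPM in IL6 shRNA1, against 5.22, 2.43, 3.91, 5.22 and 2.91 CPM in control (log2 fold change -2.27 ± 0.31 SE, adjusted p = 0.0023). In both genes the groups were separate, and both calls were kept in each alternative fit. 1700048O20Rik overlaps the annotated gene Gm49343 and B230209E15Rik overlaps Ube2nl. No tested protein-coding gene lies within 100 kb of B230209E15Rik, and Ackr2, a decoy receptor gene for chemokines 26.149 kb from 1700048O20Rik, was at 4.87 CPM in IL6 shRNA1 and 2.27 CPM in control (log2 fold change 1.08, adjusted p = 0.22).

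9230112J17Rik (chromosome 9, 60523967 to 60545882, minus strand) was lower together with its neighbour. It was at 1.87, 0.692, 0.601, 1.22 and 0.847 CPM in IL6 shRNA1, against 2.72, 4.29, 2.83, 2.07 and 3.38 CPM in control (log2 fold change -1.54 ± 0.33 SE, adjusted p = 0.015). Thsd4, an extracellular matrix protein gene 1.921 kb away on the same strand, was at 22.4 CPM in IL6 shRNA1 and 63.0 CPM in control (log2 fold change -1.49, adjusted p = 0.0050). The call of 9230112J17Rik was lost without the 3 farthest libraries (log2 fold change -1.21, adjusted p = 0.17) and with the leukocyte covariate (-0.95, adjusted p = 0.34), and 2 other annotated genes overlap it.

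Promoters of the lincRNA genes were searched for the motifs of transcription factors that act below interleukin-6, TTCNNNGAA of the STAT family and TGANTCA of AP-1, both of which read the same on either strand. RefSeq (GRCm38.p6) listed 123 promoters, from 250 bases before to 50 after the start, for 102 of the 192 genes. The STAT motif was in 4.88% of them and in 8.30% of all 32851 promoters listed, and the AP-1 motif in 9.76% and 7.81%. Of the 9 called genes with a promoter listed, 0 held the STAT motif and 2 the AP-1 motif, B230209E15Rik beginning 13 bases and 9230112J17Rik 47 bases before the start. These are shown since they belong to genes lower in IL6 shRNA1; capitals mark the AP-1 motif, and a match of letters is a description and does not show binding. The first is chr7:61615278-61615577 and the second chr9:60545833-60546132, both on the minus strand.
B230209E15Rik: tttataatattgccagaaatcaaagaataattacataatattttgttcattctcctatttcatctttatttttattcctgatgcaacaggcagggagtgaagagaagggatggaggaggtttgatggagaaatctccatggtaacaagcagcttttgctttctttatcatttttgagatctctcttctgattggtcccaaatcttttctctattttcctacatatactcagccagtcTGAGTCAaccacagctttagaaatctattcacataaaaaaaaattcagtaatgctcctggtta
9230112J17Rik: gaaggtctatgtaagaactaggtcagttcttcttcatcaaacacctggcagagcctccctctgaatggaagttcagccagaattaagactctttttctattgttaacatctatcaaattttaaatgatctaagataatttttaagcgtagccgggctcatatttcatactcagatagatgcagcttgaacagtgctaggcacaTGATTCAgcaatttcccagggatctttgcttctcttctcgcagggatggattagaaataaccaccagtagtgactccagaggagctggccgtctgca

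At the Hoxa cluster the difference ran the other way from that at Hoxb. Halr1 (chromosome 6, 52102949 to 52113684, plus strand), a noncoding gene beside the Hoxa cluster that has been studied in mouse embryonic stem cells as a regulator of Hoxa genes, was at 0.855, 0.741, 0.218, 0.487 and 0.423 CPM in IL6 shRNA1, against 1.99, 1.12, 1.33, 2.17 and 1.36 CPM in control. The groups did not overlap (log2 fold change -1.54 ± 0.35 SE, adjusted p = 0.019), at 4 to 47 counts a library. The call was lost without the 3 farthest libraries (log2 fold change -1.66, adjusted p = 0.095) and with the leukocyte covariate (-1.58, adjusted p = 0.20). In the cluster, Hoxa3 (-0.59), Hoxa4 (-0.65), Hoxa9 (-0.61), Hoxa10 (-0.49) and the antisense gene Hoxaas2 (-0.98) were lower with adjusted p-values from 0.018 to 0.049, and on the other side so was Skap2 (-0.33), an adaptor protein gene.

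At the Hoxc cluster Hotair, known from human cells as a partner of Polycomb complexes, was at 4.06, 4.50, 3.06, 3.89 and 3.18 CPM in IL6 shRNA1, against 5.30, 4.63, 4.47, 6.47 and 5.10 CPM in control. The ranges overlapped by the highest IL6 shRNA1 and the lowest control library, and Hotair was not called (log2 fold change -0.47 ± 0.16 SE, adjusted p = 0.081). Its neighbours Hoxc12, at 24.7 ± 5.65 CPM in IL6 shRNA1 and 58.2 ± 12.97 CPM in control (n = 5 each, SD; -1.23, adjusted p = 0.0038), and Hoxc13 (-1.05, adjusted p = 0.0090) were lower, as was Hoxc10 (-0.38), while Hoxc8 was higher (0.44). A list of 10 noncoding genes of the Hox clusters, which does not hold Halr1, had 2 among the 192, Gm53 and Hotair, of which Gm53 was called.

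Among lincRNA genes known from immune cells, Mir142hg was higher. Mir142hg (chromosome 11, 87755577 to 87757270, plus strand) is the host transcript of miR-142, a microRNA known from blood cells. Its mature strands are shown from RefSeq (GRCm38.p6, chromosome 11, plus strand), with the seeds in capitals; the seeds differ, so each strand has its own set of targets.
mmu-miR-142a-5p: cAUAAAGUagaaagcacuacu
mmu-miR-142a-3p: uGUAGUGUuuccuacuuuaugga

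Mir142hg was at 1.55, 2.72, 2.68, 2.14 and 2.17 CPM in IL6 shRNA1, against 1.15, 0.974, 0.730, 1.34 and 0.356 CPM in control, with no overlap (log2 fold change 1.29 ± 0.31 SE, adjusted p = 0.025). It lost the call without IL6 shRNA1 libraries 2, 3 or 5 or control libraries 2 or 3 (adjusted p = 0.051 to 0.065), without the 3 farthest libraries (log2 fold change 1.08, adjusted p = 0.14) and with the leukocyte covariate (1.04, adjusted p = 0.44). The adjacent gene on the same strand, Tspoap1, which encodes a protein that binds the mitochondrial translocator TSPO, changed in the opposite direction. Tspoap1 was at 5.45, 4.25, 4.20, 5.01 and 4.66 CPM in IL6 shRNA1, against 12.2, 12.1, 10.9, 12.3 and 17.97 CPM in control (log2 fold change -1.47 ± 0.15 SE, adjusted p = 0.00081). Its body begins 3.271 kb from the end of Mir142hg.

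The other lincRNA genes on the immune list, AW112010 and Morrbid, were not called by edgeR, though DESeq2 called both (adjusted p = 0.045 for AW112010 and 0.036 for Morrbid). AW112010, an RNA induced by interferon and bacterial products in mouse immune cells, was at 24.2, 40.9, 58.5, 41.0 and 55.8 CPM in IL6 shRNA1, against 34.9, 4.72, 23.1, 9.36 and 14.5 CPM in control (log2 fold change 1.34 ± 0.47 SE, adjusted p = 0.089). It was called by limma voom (adjusted p = 0.047) and by edgeR without control library 1 (log2 fold change 1.78, adjusted p = 0.033). Control library 1 lay above IL6 shRNA1 library 1, and the value was -0.05 with the leukocyte covariate. Morrbid, which in mouse myeloid cells limits the death gene Bcl2l11, was at 12.6 ± 3.04 CPM in IL6 shRNA1 and 8.86 ± 1.14 CPM in control (n = 5 each, SD; log2 fold change 0.51, adjusted p = 0.079), and edgeR called it without IL6 shRNA1 library 1 (0.65, adjusted p = 0.012). Across libraries AW112010 stood higher where the leukocyte score was higher, and the part of leukocytes in the values of AW112010, Mir142hg and Morrbid was not tested.

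**Figure D3:**
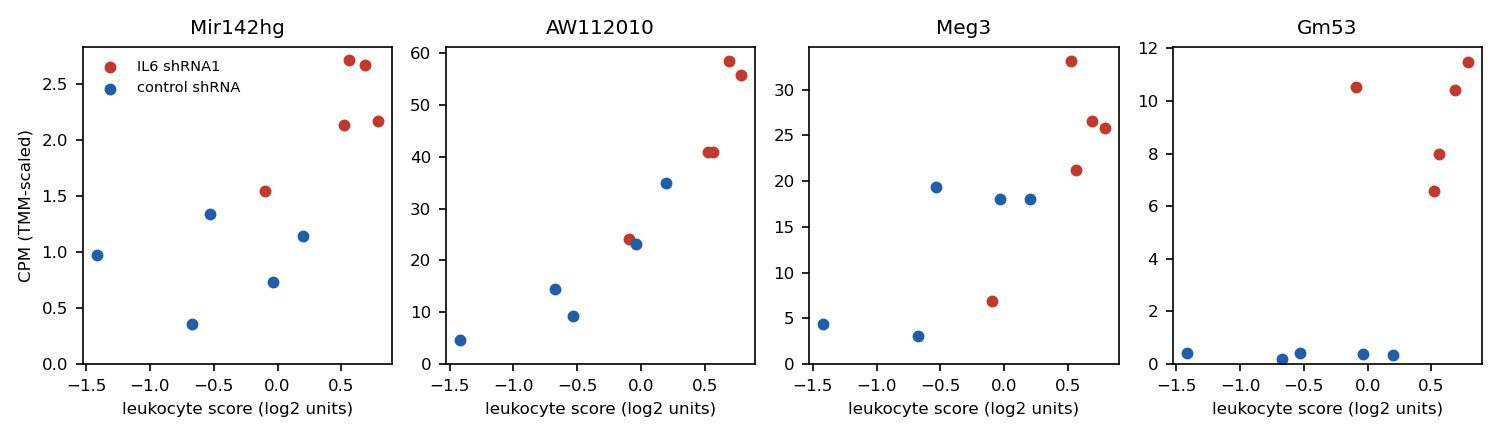
CPM of Mir142hg, AW112010, Meg3 and Gm53 in each of the 10 libraries against the leukocyte score of the library (mean centred log2 CPM of the tested leukocyte markers), red for IL6 shRNA1 and blue for control shRNA. AW112010 climbs with the score over both groups. Gm53 is above 6 CPM in every IL6 shRNA1 library and below 0.5 CPM in every control library. The groups share a score range from -0.09 to 0.20, and of the IL6 shRNA1 libraries only library 1 lies in it. The part of leukocytes in these values was not tested.

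Of the other called genes, AU020206 was the most abundant. AU020206 (chromosome 7, 75769038 to 75782099, minus strand) was at 115, 124, 118, 116 and 160 CPM in IL6 shRNA1, against 85.2, 57.6, 70.8, 65.8 and 71.4 CPM in control (log2 fold change 0.85 ± 0.12 SE, adjusted p = 0.0026). Gm47015 was at 2.19, 2.91, 2.40, 3.31 and 2.17 CPM in IL6 shRNA1, against 0.933, 1.02, 0.859, 1.03 and 0.771 CPM in control (log2 fold change 1.48 ± 0.20 SE, adjusted p = 0.0023). In both the groups were separate, and both lost the call with the leukocyte covariate (log2 fold change 0.55, adjusted p = 0.097 for AU020206 and 1.51, adjusted p = 0.077 for Gm47015). The other higher genes were AI427809 (2.60 CPM in IL6 shRNA1 and 1.57 CPM in control, adjusted p = 0.038), AI504432 (11.3 and 4.77 CPM, adjusted p = 0.049) and Gm5086 (2.15 and 0.946 CPM, adjusted p = 0.049). AI504432 overlapped between the groups, since control library 1 at 7.38 CPM lay above IL6 shRNA1 library 1 at 7.21 CPM. Each of these 3 lost the call without IL6 shRNA1 libraries 2, 3, 4 or 5 and control libraries 2 or 5, among others, with adjusted p-values of 0.0501 to 0.108.

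The lower genes with smaller differences were more abundant. Gm10451 was at 22.6, 24.5, 23.97, 23.5 and 18.9 CPM in IL6 shRNA1, against 31.9, 35.7, 30.5, 29.9 and 33.9 CPM in control (log2 fold change -0.51 ± 0.09 SE, adjusted p = 0.0058), with no overlap. Gm50321 was at 16.99 ± 3.19 CPM in IL6 shRNA1 and 24.9 ± 1.61 CPM in control (n = 5 each, SD; -0.55, adjusted p = 0.017), but its transcript was covered in full by near-identical copies led by Gm47547, so the source of its reads is uncertain. Incenp, the centromere protein gene 35.399 kb from it, was lower too (-0.34, adjusted p = 0.022). Without the 3 farthest libraries both lost the call, Gm10451 at a log2 fold change of -0.38 (adjusted p = 0.058) and Gm50321 at -0.48 (0.14). With the leukocyte covariate they lost it as well, Gm10451 at -0.40 (adjusted p = 0.22) and Gm50321 at -0.43 (0.35).

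Lockd, named for its place downstream of the cell cycle inhibitor gene Cdkn1b, was at 4.54, 4.40, 4.59, 5.06 and 2.96 CPM in IL6 shRNA1, against 6.24, 6.87, 6.27, 5.64 and 8.07 CPM in control (log2 fold change -0.62 ± 0.17 SE, adjusted p = 0.037). Cdkn1b, 3.579 kb away on the same strand, was at 73.3 CPM in IL6 shRNA1 and 86.7 CPM in control and was not called (-0.24, adjusted p = 0.096). The last lower genes were 2410018L13Rik (2.83 CPM in IL6 shRNA1 and 4.42 CPM in control, adjusted p = 0.030), of whose transcript 23.1% was shared with copies, and Gm37494 (27.6 and 35.6 CPM, adjusted p = 0.048), whose groups overlapped. Lockd, 2410018L13Rik and Gm37494 lost the call without IL6 shRNA1 libraries 2 or 5 or control libraries 2 or 5, among others, with adjusted p-values of 0.053 to 0.118.

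**Figure D4:**
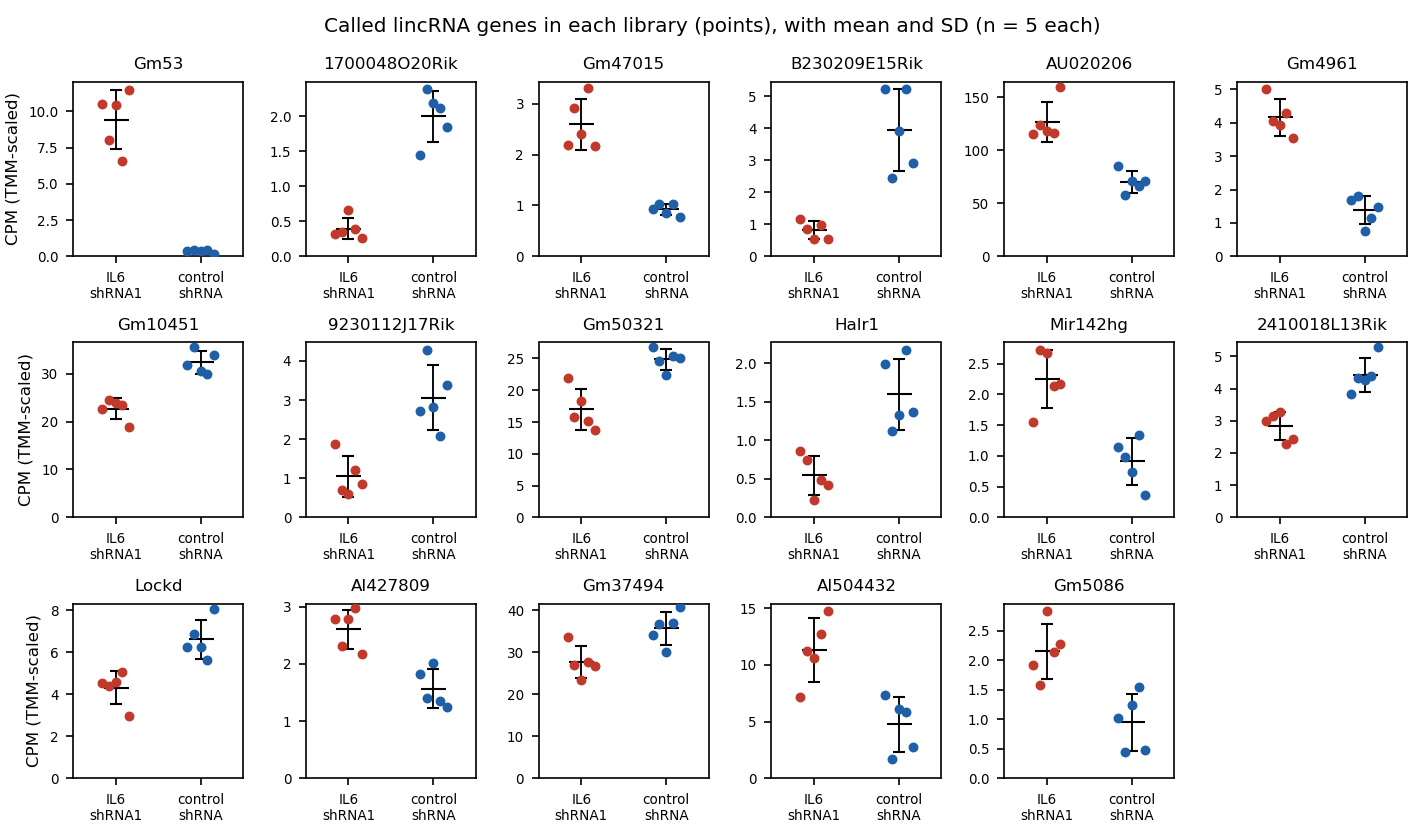
CPM (scaled with TMM factors) of the 17 called lincRNA genes in each library, IL6 shRNA1 in red on the left and control shRNA in blue on the right of each panel, with the mean and SD of 5 libraries. The groups are separate in 15 panels and overlap for AI504432 and Gm37494.

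The 4 lincRNA genes listed for nuclear bodies or for the binding of proteins or microRNAs were not called by edgeR with all libraries. Malat1, an RNA of nuclear speckles, was at 405, 317, 216, 216 and 260 CPM in IL6 shRNA1, against 283, 244, 270, 309 and 329 CPM in control (log2 fold change -0.02 ± 0.17 SE, 95% interval -0.40 to 0.35). Neat1, the scaffold of paraspeckles, was at 244, 285, 216, 238 and 345 CPM in IL6 shRNA1, against 215, 151, 188, 245 and 186 CPM in control (0.43 ± 0.15 SE, adjusted p = 0.081). In both genes the groups overlapped. Neat1 was called by DESeq2 (adjusted p = 0.040) and by edgeR without control library 4 (0.52, adjusted p = 0.0499). 2900097C17Rik, the mouse form of NORAD, which binds Pumilio proteins, was at 228 ± 32.4 CPM in IL6 shRNA1 and 238 ± 27.8 CPM in control (n = 5 each, SD; -0.06, interval -0.30 to 0.18). Oip5os1, known as Cyrano for its role in the decay of miR-7, was at 158 ± 41.6 CPM in IL6 shRNA1 and 161 ± 14.8 CPM in control (-0.03, interval -0.38 to 0.31).

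Of 6 snoRNA host genes among the 192, transcripts from whose introns small nucleolar RNAs are cut, 0 were called by edgeR with all libraries, and Snhg6 was called without control library 4 (log2 fold change 0.39, adjusted p = 0.042). Their median log2 fold change was 0.11, Snhg18 (15.1 CPM in IL6 shRNA1 and 11.7 CPM in control, 0.37, adjusted p = 0.13) and Snhg6 (28.3 and 22.9 CPM, 0.31, adjusted p = 0.10) lay highest, and Snhg15 (0.18), Snhg12 (0.04), Epb41l4aos (-0.01) and Snhg20 (-0.12) followed. The host gene Gas5, which has another biotype in the table and so is not among the 192, was higher, at 120 ± 14.2 CPM in IL6 shRNA1 and 81.4 ± 7.64 CPM in control (n = 5 each, SD; log2 fold change 0.56, adjusted p = 0.0055), and was the single call among all 19 listed snoRNA hosts tested. Of 4 microRNA hosts among the 192, Mir142hg was called, and Mir17hg, the host of the miR-17 to miR-92 cluster (4.66 CPM in IL6 shRNA1 and 4.50 CPM in control, 0.05), and Carmn, the host of miR-143 and miR-145 (1.12 and 1.35 CPM, -0.27), were not. The remaining host, Meg3, is a maternally expressed imprinted RNA, and its libraries spread widely: 6.89, 21.2, 26.5, 33.1 and 25.8 CPM in IL6 shRNA1, against 17.99, 4.43, 17.996, 19.4 and 3.08 CPM in control (0.85 ± 0.55 SE, adjusted p = 0.33). Rian, from the same imprinted cluster, was at 6.52, 23.0, 23.1, 30.6 and 27.5 CPM in IL6 shRNA1, against 17.2, 5.84, 16.8, 17.4 and 4.03 CPM in control, with the low libraries being the same as for Meg3. Pvt1, the noncoding neighbour of Myc, was not called (4.43 CPM in IL6 shRNA1 and 4.95 CPM in control, -0.16, interval -0.48 to 0.15).

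**Figure D5:**
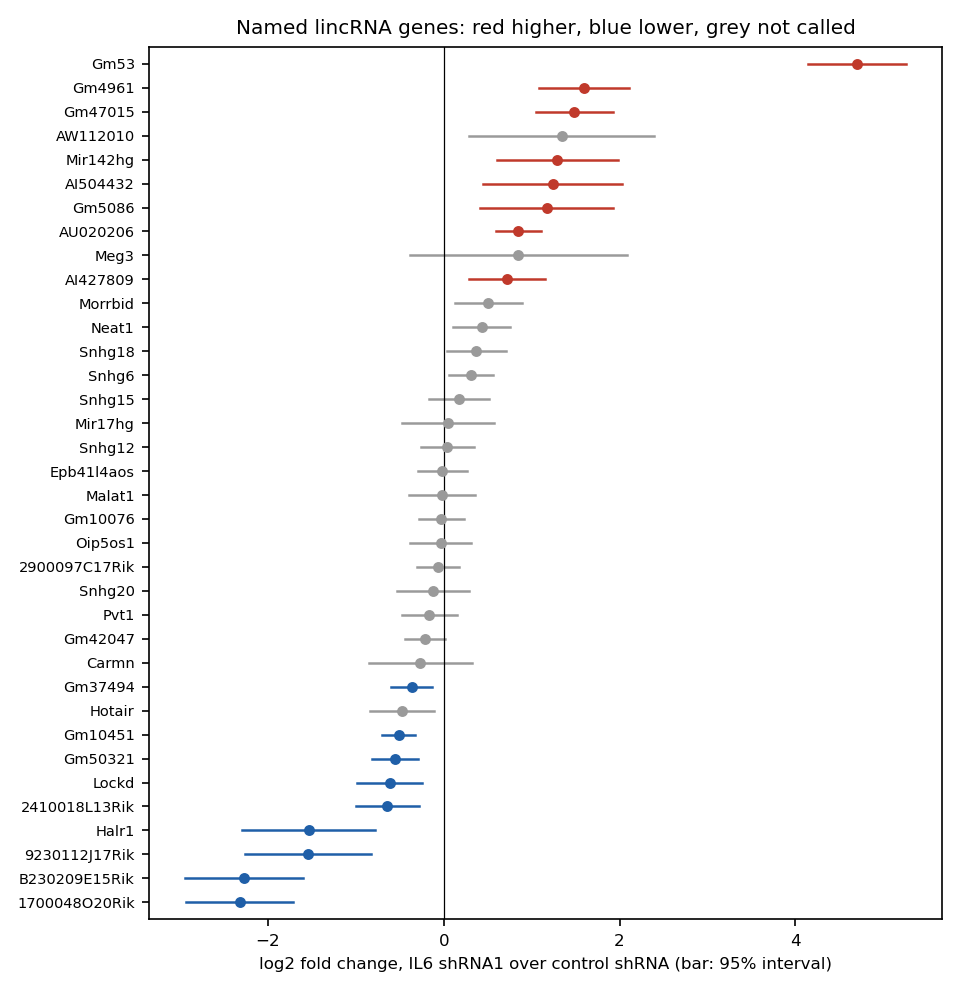
Log2 fold changes, IL6 shRNA1 over control shRNA, with 95% intervals for the 36 lincRNA genes that were called, were among the 10 most abundant or stood in a role list; red is called higher, blue called lower and grey not called. The interval of Gm53 (4.15 to 5.26) lies apart from those of the other genes, those of AW112010 and Meg3 are wide, and those of Malat1, Oip5os1 and 2900097C17Rik enclose 0.

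For the 192 genes as a whole, calls of the gene and of its neighbour coincided in a few pairs. A tested protein-coding gene lay within 100 kb of 166 of them, at a median distance of 3.26 kb. Of these 166 neighbours 30 were called, beside 1715 of all 13464 tested protein-coding genes (12.7%). Of 12 called lincRNA genes with such a neighbour, 3 shared call and direction with it (Gm53 with Hoxb9, 9230112J17Rik with Thsd4, Gm50321 with Incenp), 1 was called in the opposite direction (Mir142hg with Tspoap1) and 8 had a neighbour that was not called. The reads of Gm50321 are of uncertain source, as given above. In the other direction, 26 of the neighbours were called beside a lincRNA gene that was not. Hotair beside Hoxc12 was such a pair, and so was Epb41l4aos beside Epb41l4a (log2 fold change -0.01 for Epb41l4aos and 0.52 for Epb41l4a), although their ends are 0.341 kb apart.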

How the data were processed

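RNA sequencing counts of 10 samples were analysed, 5 labelled IL6 shRNA1 and 5 labelled control shRNA. The deposited count table holds raw whole-number counts per gene, and the deposited FPKM table holds the same genes scaled by gene length and column total. Per the submitters' processing notes, the tools were STAR 2.7.0f, featureCounts of Subread 1.6.4, SAMtools 1.11, R 4.0.4, FastQC 0.11.9 and Trim Galore 0.6.6, and the builds were GRCm38 and mm10. Which annotation release was used, whether strand was, and how multi-mapping reads were handled is not given in the sources used here.

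Counts were fitted for the whole table in R 4.3.3 with edgeR 4.0.16: filterByExpr by group (minimum count 10; 15064 genes kept), TMM factors, glmQLFit with robust=TRUE and glmQLFTest, with Benjamini-Hochberg adjustment over all genes tested. Calls are at an adjusted p under 0.05. CPM values in the text use TMM-scaled library sizes, except those of the membership rule, which use column totals. Totals and counts limit precision by counting error, and no interval here covers more than the spread between these samples. The script was tested on simulated data.

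The members, gene lists, motifs and alternatives were chosen with earlier results of these data known. Genes named are Gm53 and the genes beside it, called members, the 10 most abundant, members of role lists, those nearest the threshold, and the nearest tested protein-coding genes. Genes of other biotypes, Ackr2 among them, and neighbours farther off are named as context, and the text on Rian was chosen after its values were seen. Same-numbered libraries of the 2 groups did not deviate together. Transcripts and copies came from GENCODE M21 with blastn 2.17.0, and promoters and microRNAs from RefSeq (GRCm38.p6). Alternatives used DESeq2 1.42.0 and limma 3.58.1. Figures were drawn in Python 3.11.15 (matplotlib 3.10.9, numpy 2.4.6, pandas 2.3.3).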

Additional observations from a re-analysis of the deposited data

Results flagged for a closer look

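In 82 groups of 5 libraries examined for a library far from the others, 3 were found. Chance flags about 1 in 20 such groups. The 3 cannot be judged against that rate, since 2310015D24Rik was added to the genes examined after its values were seen. AU020206 was at 159.6 CPM in IL6 shRNA1 library 5, while the other IL6 shRNA1 libraries were at 115.2 to 123.6 CPM. Tspoap1, the neighbour of Mir142hg, was at 17.97 CPM in control library 5, against 10.87 to 12.31 CPM in the other control libraries. 2310015D24Rik, named here after its values were seen, was at 9.21 CPM in IL6 shRNA1 library 5 and at 0 to 1.02 CPM in the other IL6 shRNA1 libraries; its log2 fold change of 3.46 was not called (adjusted p = 0.099).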

How the results depend on the processing

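With 17 lincRNA genes and 1775 genes in all called, other scaling factors, a filter of 1 CPM in 5 libraries, limma voom, a fit without robust dispersion, and the FPKM values with pseudocounts of 1 and 0.1 moved both counts by less than 1.5 times. Without a filter on low counts 11 lincRNA genes were called, and DESeq2 called 3029 genes. At an adjusted p under 0.01 the counts were 7 and 381, without the 3 farthest libraries 6 and 212, and 4 and 59 with leukocyte score as covariate. Of the 99 lincRNA genes that overlap no other gene body 9 were called, and the omission of single libraries gave 10 to 26 lincRNA genes and 864 to 2774 genes. With the replicate block, the number in the sample names as a term, 9 and 755 were called, but same-numbered libraries share only a number: their correlations were -0.28, -0.07, 0.11, 0.27 and -0.27, and number 3 was the single number whose libraries correlated best with each other. The direction turned round only for genes that were not called, and the cause was not tested. With the leukocyte covariate the log2 fold change was -0.046 for AW112010, -0.64 for Meg3, 0.18 for 2900097C17Rik, 0.12 for Gm10076, 0.12 for Oip5os1, -0.34 for Mir17hg, 0.14 for Malat1 and 0.12 for Epb41l4aos. Without the 3 farthest libraries it was 0.018 for 2900097C17Rik, -0.016 for Snhg12, 0.12 for Gm10076, -0.12 for Mir17hg, 0.0044 for Malat1 and 0.071 for Epb41l4aos. Epb41l4aos was at 0.00063 with RLE factors, 0.0068 with no filter and 0.0022 with the 1 CPM filter. Over omissions of 1 library the range was -0.12 to 0.0029 for 2900097C17Rik, -0.048 to 0.10 for Snhg12, -0.093 to 0.074 for Gm10076, -0.16 to 0.068 for Oip5os1, -0.070 to 0.15 for Mir17hg, -0.17 to 0.072 for Malat1 and -0.062 to 0.069 for Epb41l4aos. Depth limits the genes of low level most: Gm53, 1700048O20Rik and Halr1 rest on as few as 3, 5 and 4 counts in a library.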

Other observations

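None of the lincRNA genes of the X inactivation centre was among the 192. Xist, Jpx and Ftx were listed at 0 in all 10 libraries, and they lie in an unbroken stretch of 146 genes of chromosome X, from Ogt to Magt1 (101640060 to 106011906), that were all listed at 0. That stretch holds 41 protein-coding genes, with Ogt among them, and 5 lincRNA genes. Chromosome X held 3 further stretches with at least 20 protein-coding genes all listed at 0, of 45, 157 and 129 genes. Ogt is used by nearly every cell, so a 0 here is reported as listed and not as absence of the RNA. Of the 192 genes, 3 were on chromosome X and 0 of them were called.

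The CPM ranges of the groups were separate for 3 lincRNA genes that edgeR did not call: Gm10479 (2.58 CPM in IL6 shRNA1 and 1.79 CPM in control, adjusted p = 0.062), Gm27042 (2.32 and 3.28 CPM, adjusted p = 0.066) and 4833413E03Rik (1.29 and 0.870 CPM, adjusted p = 0.089). Of Gm10479's transcript 58.6% was shared with copies, led by the zinc finger gene Zfp125. DESeq2 called Gm10479 and Gm27042, and limma on log2(FPKM + 1) called all 3. By chromosome, the most calls were the 3 on chromosome 7 (of 10 lincRNA genes there), while 0 of the 13 on chromosome 17 were called. Over all chromosomes 17 of the 192 were called (8.85%), beside 11.8% of all genes tested. These numbers per chromosome are small, and a difference between chromosomes was not tested. The genes and chromosomes of this paragraph were named after their values were seen.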
